A study of Schmidtea mediterranea with 16 samples.

Results

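The transcript described here is dd_Smed_v6_920_0_1, agat-1, 1 of the 26833 genes of the deposited count matrix of planarian X1 cells. It was chosen by its identifier, as a marker of late, post-mitotic epidermal progenitors. The rule used no measured value, though earlier results of these data were known when it was written. The name agat-1 came with that choice: the deposited files give identifiers without names, and it was not checked against a sequence. The gene passed the filter on low counts and is 1 of the 17843 genes tested. Its matrix row was made of 1 transcript, so no alternative transcript was summed into it.

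X1 cells are a gate of dissociated cells of the flatworm Schmidtea mediterranea, sorted by flow cytometry for a high DNA content and made up mostly of dividing stem cells, the neoblasts. RNA interference (RNAi) targeted either atm, whose product is a kinase of the DNA damage response, or unc-22, a nematode gene that serves as the control. In each RNAi group, animals were left unirradiated or received 2000 rads, with cells taken 1 day later. This made 4 groups: unc-22(RNAi) and atm(RNAi), each without and with irradiation. Every group had 4 libraries, made from poly(A) RNA. The labels do not say whether the libraries of a group came from separate animals or sorts, so p-values measure the spread between these libraries, which may be technical.

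The planarian epidermis is renewed from neoblasts. Their descendants leave the cell cycle below the body surface, pass through a series of progenitor states while they move outward, and join the epidermis. agat-1 encodes a protein related to arginine:glycine amidinotransferases, which in vertebrates catalyse the first step of creatine synthesis. It is used as a marker of the later of these progenitor states, after early progenitor genes have been switched off. A gate on dividing cells is meant to leave such post-mitotic cells out, and reads of agat-1 in it give no information on which cells they came from. Marker lists for neoblasts, early epidermal progenitors, epidermis, neurons, muscle and gut were drawn up by gene name and could not be matched to identifiers, so the cell-type make-up of the libraries was not analysed here.

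The 16 libraries had gene totals between 6.99 M and 26.5 M (M, 1000000 reads). The group mean was lowest in irradiated unc-22(RNAi), at 11.3 M ± 3.42 (SD, n = 4), and between 19.5 M and 21.6 M in the others. Unmapped reads made up 61.4% ± 8.84 (SD, n = 4) of the libraries of irradiated unc-22(RNAi) and, as means, between 30.6% and 39.7% of those of the other 3 groups. A pair of abundant genes, dd_Smed_v6_7_0_1 and dd_Smed_v6_4_1_1, together held 14.4% ± 5.55 (SD, n = 4) of all counts in the former and between 4.74% and 7.93% in the others. The atm transcript could not be matched to an identifier, so the RNAi groups rest on their labels. Libraries numbered 1 and 2 were run in lane 8 and those numbered 3 and 4 in lane 7, in all 4 groups.

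agat-1 was read in every library. It had between 254 and 5776 reads in a library and 27682 reads in all. Another 188 reads lay on the opposite strand, 0.675% of the reads of both strands, below the 1.33% to 2.42% of opposite-strand reads over all genes in the libraries. Levels are given as CPM, reads of the gene per 1000000 reads of the library after scaling by TMM (trimmed mean of M values).

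In unirradiated unc-22(RNAi), the 4 libraries in the order of their numbers held agat-1 at 18.97, 62.8, 91.6 and 24.9 CPM. In unirradiated atm(RNAi) they held it at 21.9, 68.5, 65.7 and 85.3 CPM. Both unirradiated groups thus spanned a similar range, with library 1 at the lower end of each. In irradiated unc-22(RNAi) the values were 73.4, 139, 366 and 396 CPM. In irradiated atm(RNAi) they were 12.6, 61.3, 115 and 110 CPM. Libraries 3 and 4 of irradiated unc-22(RNAi) were the highest of all 16, and library 1 of irradiated atm(RNAi) was the lowest. Counting error was small beside these differences: the exact 95% Poisson interval of the lowest value, from 254 reads, ran from 11.1 to 14.2 CPM, and that of the highest, from 4990 reads, from 385 to 407 CPM.

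**Figure D1:**
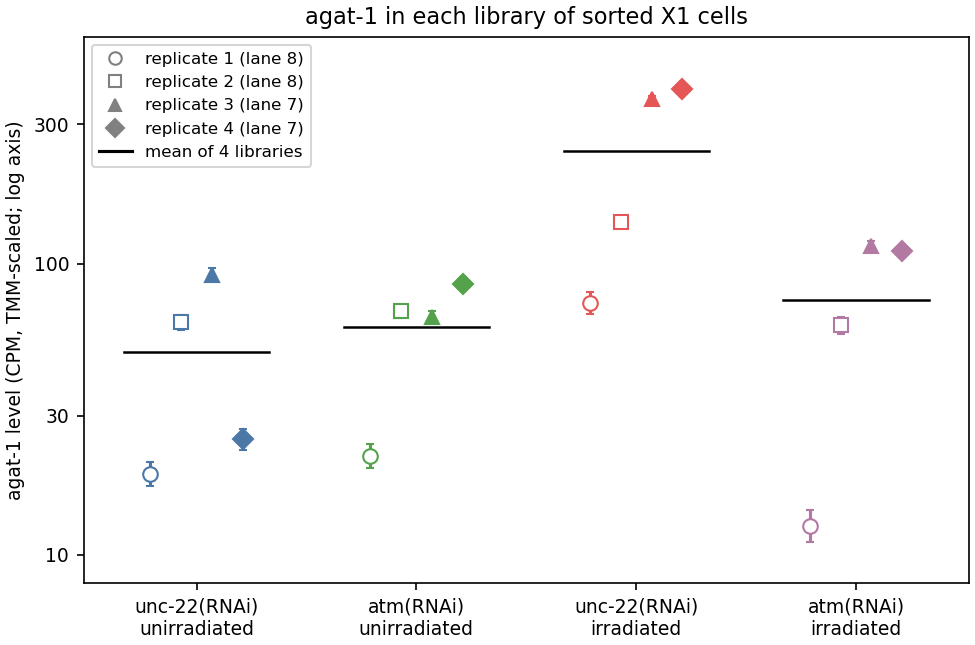
Level of agat-1 (CPM, log axis) in each of the 16 libraries, by group; symbols give the replicate number, open symbols lane 8 and filled symbols lane 7, bars the exact 95% Poisson interval of each count, and horizontal lines the mean of 4 libraries. The mean of irradiated unc-22(RNAi), 244 CPM, stands above the means of the other 3 groups, 49.6, 60.4 and 74.7 CPM, while the lowest library of that group, at 73.4 CPM, lies inside their range.

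The order of the group means was 49.6 ± 34.1 CPM in unirradiated unc-22(RNAi), 60.4 ± 27.03 CPM in unirradiated atm(RNAi), 74.7 ± 47.9 CPM in irradiated atm(RNAi) and 244 ± 161 CPM in irradiated unc-22(RNAi) (SD, n = 4 each). The steps between the first 3, 10.8 and 14.3 CPM, were smaller than the SD of either neighbour. The fourth stood 169 CPM above the third, more than the SD of either, though their libraries overlapped. Replicates of agat-1 varied more than those of most genes. On the log2 CPM scale, replicates of unc-22(RNAi) had an SD of 1.07 without and 1.17 with irradiation, against a median over all tested genes of 0.40 and 0.66. Replicates of atm(RNAi) had an SD of 0.88 without and 1.49 with irradiation, against a median of 0.32 and 0.49. Between 71.7% and 88.0% of tested genes had a smaller SD in these groups. In all 4 groups the library numbered 1 had the lowest level of agat-1.

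Irradiation of control animals was the first comparison, which asks whether the level of this progenitor transcript changed in the gate within 1 day. agat-1 rose in irradiated unc-22(RNAi), from a mean of 49.6 to 244 CPM. The fold change was 4.93 (95% interval 1.90 to 12.8), or 2.30 ± 0.65 (SE) in log2, and the adjusted p was 0.00837 (quasi-likelihood test in edgeR, adjusted by Benjamini-Hochberg over 17843 genes). Such a call was common in this comparison: 47.3% of tested genes were called, and 23.8% were called as higher. The groups overlapped in 1 pair of libraries, since irradiated library 1 at 73.4 CPM lay below unirradiated library 3 at 91.6 CPM, and 15 of 16 pairs had the irradiated library higher. For 40.6% of tested genes the groups did not overlap at all. An exact two-sided permutation test of log2 CPM, over 70 splits with a smallest possible p of 0.0286, gave 0.0571, and 0.190 after Benjamini-Hochberg adjustment over the 5 contrasts. Among all tested genes the log2 fold change had a median of 0.17, and 84.5% of genes had a lower value than agat-1. By p-value, 29.5% of tested genes stood ahead of it.

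The rise was called within lane 7 and not within lane 8, with 2 libraries per group in each. For this comparison, 6430 of 18084 tested genes were called in lane 7 and 58 of 18630 in lane 8. In lane 7 the unirradiated libraries held 24.9 and 91.6 CPM and the irradiated ones 366 and 396 CPM, a log2 fold change of 2.66 (adjusted p = 0.00287, edgeR). In lane 8 they held 18.97 and 62.8 CPM against 73.4 and 139 CPM, a log2 fold change of 1.41 (adjusted p = 0.310, edgeR). Leaving out any 1 of the 16 libraries kept the call, with log2 fold changes from 1.96 to 2.71. Both ends of this range came from leaving out an unc-22(RNAi) library. The atm(RNAi) libraries are outside this contrast, and without 1 of them it ran only from 2.25 to 2.35. Leaving out the 4 libraries numbered 4 together, chosen after seeing the data, gave 1.79 and an adjusted p of 0.0953 (edgeR).

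Depth, the unmapped share and the share of the 2 leading genes all moved with this group, as given above. With all reads of a library, unmapped ones included, as its size, the log2 fold change of agat-1 was 1.96 (adjusted p = 0.0139, edgeR), where the median of all tested genes was -0.38. Without the 2 leading genes it was 2.36 (adjusted p = 0.00811, edgeR). CPM is a share of the counted reads of the sorted cells. It cannot tell more cells with the transcript from more transcript per cell, or either from a loss of other RNA from the gate. Which of these held was not tested.

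Under atm knockdown, the same comparison gave no call. The mean went from 60.4 CPM in unirradiated to 74.7 CPM in irradiated atm(RNAi), and 9 of 16 pairs of libraries had the irradiated one higher. The log2 fold change was 0.31 ± 0.62 (SE), with a 95% interval from -1.01 to 1.62 and 0.853 as its adjusted p (edgeR); the exact permutation p was 0.971. In this comparison 3.58% of tested genes were called. Changes between a fall by 1.01 and a rise by 1.62 in log2 thus remain within the error. The direction differed between the lanes, at 0.50 in lane 7 and -0.25 in lane 8, with neither called. Within lanes, 66 of 18084 tested genes were called in lane 7 and 0 of 18630 in lane 8. Without irradiated library 1, the lowest of all, the log2 fold change was 0.68 (adjusted p = 0.511, edgeR).

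Knockdown of atm in unirradiated animals was tested next. Mean agat-1 was 49.6 CPM in unc-22(RNAi) and 60.4 CPM in atm(RNAi), which differ by 0.29 ± 0.63 (SE) in log2, with a 95% interval from -1.03 to 1.60 and 1 as the adjusted p (edgeR). The exact permutation p was 0.657, and 10 of 16 pairs of libraries had the atm(RNAi) library higher. The share of tested genes called was 0%, with 278 genes at an unadjusted p under 0.05 in edgeR, 1 gene called by DESeq2 and 0 by limma-voom. Those 278 are a smaller share of the 17843 tested genes than the 0.05 expected on average if no gene differed. Within lanes the log2 fold change was 0.36 in lane 7 and 0.14 in lane 8.

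**Figure D2:**
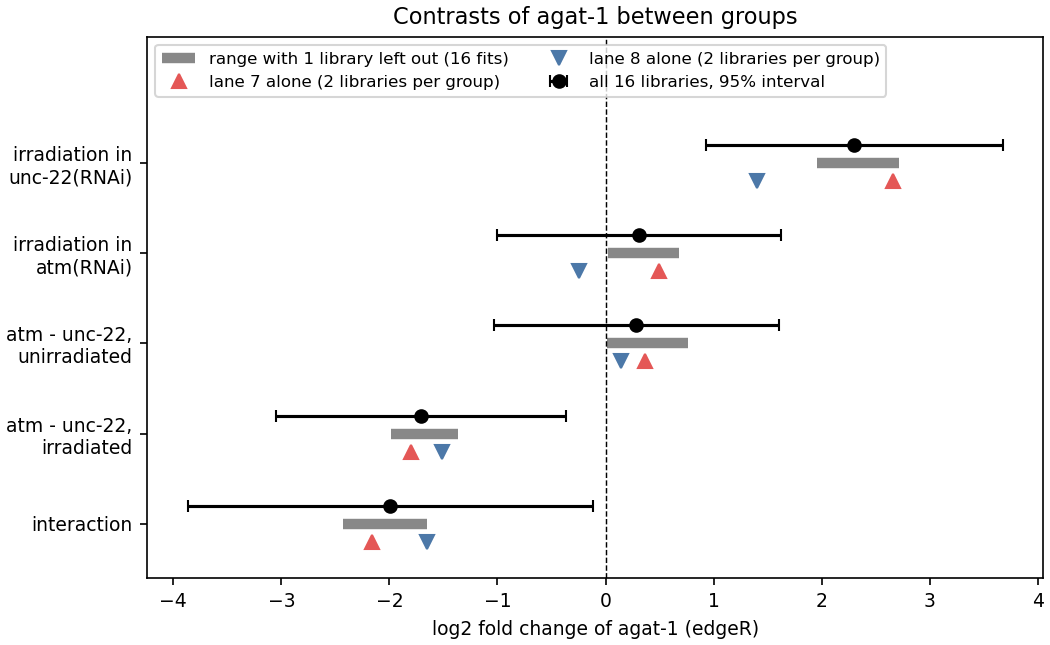
Log2 fold change of agat-1 in the 4 group contrasts and the interaction (x axis), with the 95% interval of the fit of all 16 libraries, the range over 16 fits that leave out 1 library, and the values within lane 7 and lane 8. Irradiation in unc-22(RNAi) stands at 2.30 with all values above 0, irradiation in atm(RNAi) and knockdown in unirradiated animals lie near 0, and knockdown in irradiated animals and the interaction lie below 0 at -1.71 and -1.99.

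Mean agat-1 in irradiated animals was 74.7 CPM under atm knockdown and 244 CPM in the control, a difference that did not pass the threshold. The log2 fold change was -1.71 ± 0.64 (SE), with a 95% interval from -3.05 to -0.36, and a p of 0.0158 before and 0.0789 after adjustment (edgeR). In 2 of 16 pairs of libraries the atm(RNAi) library was the higher one, both against unc-22(RNAi) library 1, and the exact permutation p was 0.114. Here 14.8% of tested genes were called and 3.36% were called as lower; 4.97% of tested genes had a lower log2 fold change than agat-1. The value was close in both lanes, at -1.80 in lane 7 (adjusted p = 0.0542, edgeR) and -1.51 in lane 8 (adjusted p = 0.561, edgeR). These fits called 931 of 18084 tested genes in lane 7 and 0 of 18630 in lane 8. For agat-1, the side of the threshold depended on the fit. The adjusted p was 0.0448 in DESeq2, 0.0496 in edgeR without a filter on low counts and 0.0424 in edgeR with lane as a covariate. With replicate number as a block in edgeR it was 0.0026, at a log2 fold change of -1.80. In limma-voom the adjusted p was 0.0527. It was 0.172 in an edgeR fit of the irradiated libraries alone, where 0 of 15486 tested genes were called. Without irradiated unc-22(RNAi) library 1 the adjusted p was 0.0302 (edgeR). Without irradiated atm(RNAi) library 1 it was 0.176, with a log2 fold change of -1.37 (edgeR).

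The interaction asks whether irradiation changed agat-1 differently under atm knockdown and in the control. For agat-1 it was -1.99 ± 0.89 (SE) in log2, with a 95% interval from -3.87 to -0.12, and a p of 0.0383 before and 0.205 after adjustment (edgeR). Permuting the RNAi labels within each irradiation state gave an exact p of 0.0845 over 4900 regroupings. The share of tested genes called was 3.58%, and 0.504% were called with a negative value. This fit takes no account of replicate numbers and did not call the difference, although it called the rise in control animals alone. With replicate number as a block in edgeR the interaction was called, at -2.09 (adjusted p = 0.0204). No other alternative fit called it. Within groups, 77.4% of the sum of squares of agat-1 in log2 CPM lay between replicate numbers. What a number stands for is not given in the labels, so whether the block is the better fit was not tested. The interaction was -2.16 in lane 7 and -1.66 in lane 8, and without irradiated atm(RNAi) library 1 it was -1.67.

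**Figure D3:**
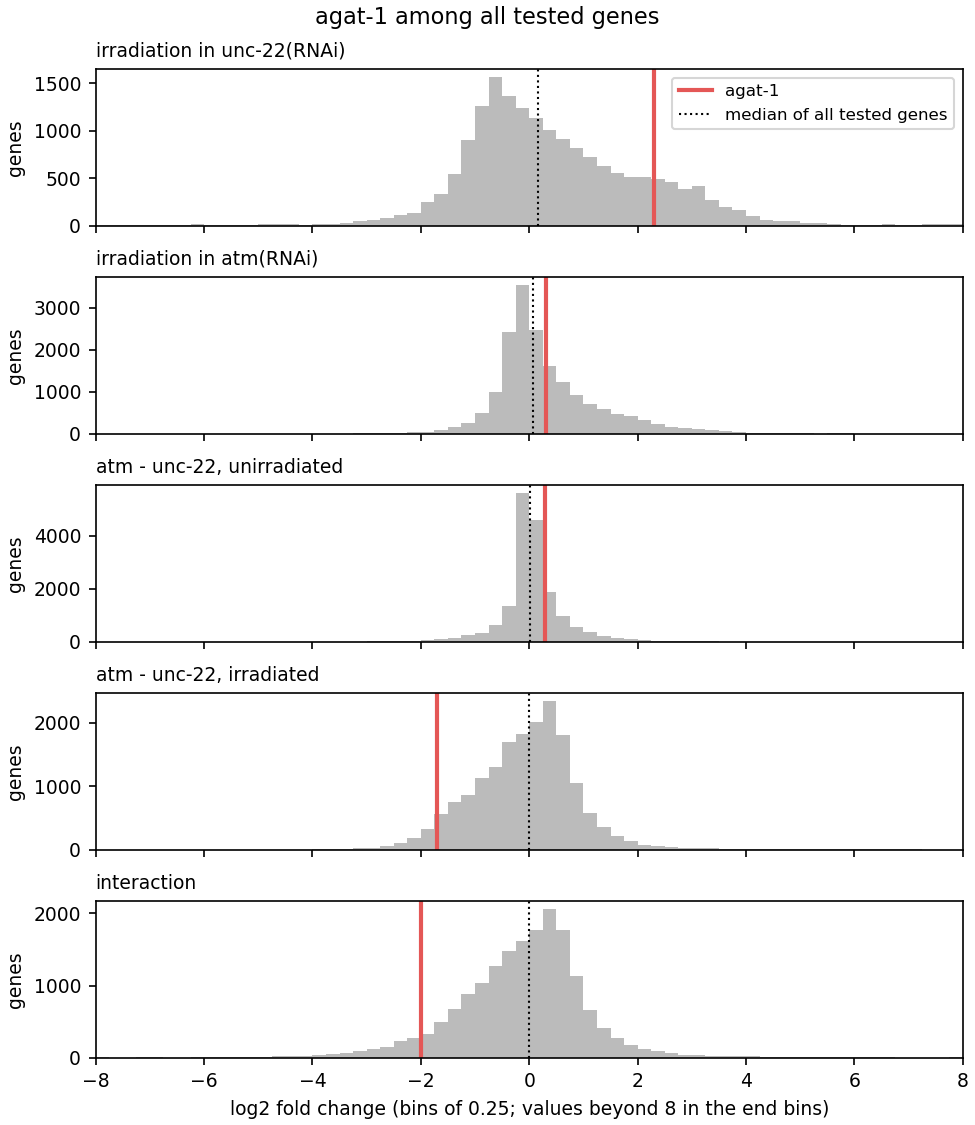
Number of tested genes (y axis) by log2 fold change in bins of 0.25 (x axis) for each contrast, with agat-1 as a solid line and the median of all 17843 genes as a dotted line. agat-1 lies in the upper shoulder for irradiation in unc-22(RNAi), at 2.30 against a median of 0.17. It lies above the median for irradiation in atm(RNAi), where 61.7% of genes had a lower value. For knockdown in unirradiated animals 76.5% of genes had a lower value. In knockdown in irradiated animals and the interaction agat-1 lies in the lower tail.

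The genes whose levels followed agat-1 most closely were found among 7392 other tested genes with a mean of at least 10 CPM. Likeness was the SD, over the 16 libraries, of the difference between the log2 CPM of a gene and that of agat-1, so that a gene at a constant ratio to agat-1 has a value of 0. The 5 nearest genes were dd_Smed_v6_899_0_1, dd_Smed_v6_1943_0_1, dd_Smed_v6_4252_0_1, dd_Smed_v6_1355_0_1 and dd_Smed_v6_232_0_1, with values from 0.23 to 0.32. The next gene was at 0.39, the median of the 7392 genes was 1.55, and 16 genes were below 0.5. The log2 level of agat-1 itself had an SD of 1.38 over the same libraries. The files do not name these genes, and since they were picked for their likeness in these libraries, their differences between groups and among replicates follow from the choice and were not tested.

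The nearest of them, dd_Smed_v6_899_0_1, had a mean of 66.7 ± 51.0 CPM in unirradiated unc-22(RNAi) and 78.4 ± 33.8 CPM in unirradiated atm(RNAi) (SD, n = 4 each). In irradiated unc-22(RNAi) it had 342 ± 230 CPM and in irradiated atm(RNAi) 108 ± 69.1 CPM (SD, n = 4 each). Across the 5 genes the log2 fold change with irradiation ran from 2.00 to 2.499 in unc-22(RNAi) and from 0.43 to 0.77 in atm(RNAi), beside 2.30 and 0.31 for agat-1. The order of the 4 group means was that of agat-1 in each of the 5. With the group means taken away, so that only the differences among replicates remained, dd_Smed_v6_899_0_1 at 0.20, dd_Smed_v6_232_0_1 at 0.26 and dd_Smed_v6_1355_0_1 at 0.28 were the 3 nearest genes, where the median gene was at 1.09. Library 1 was the lowest of its group in all 4 groups for 4 of the 5 genes and in 3 groups for dd_Smed_v6_232_0_1.

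**Figure D4:**
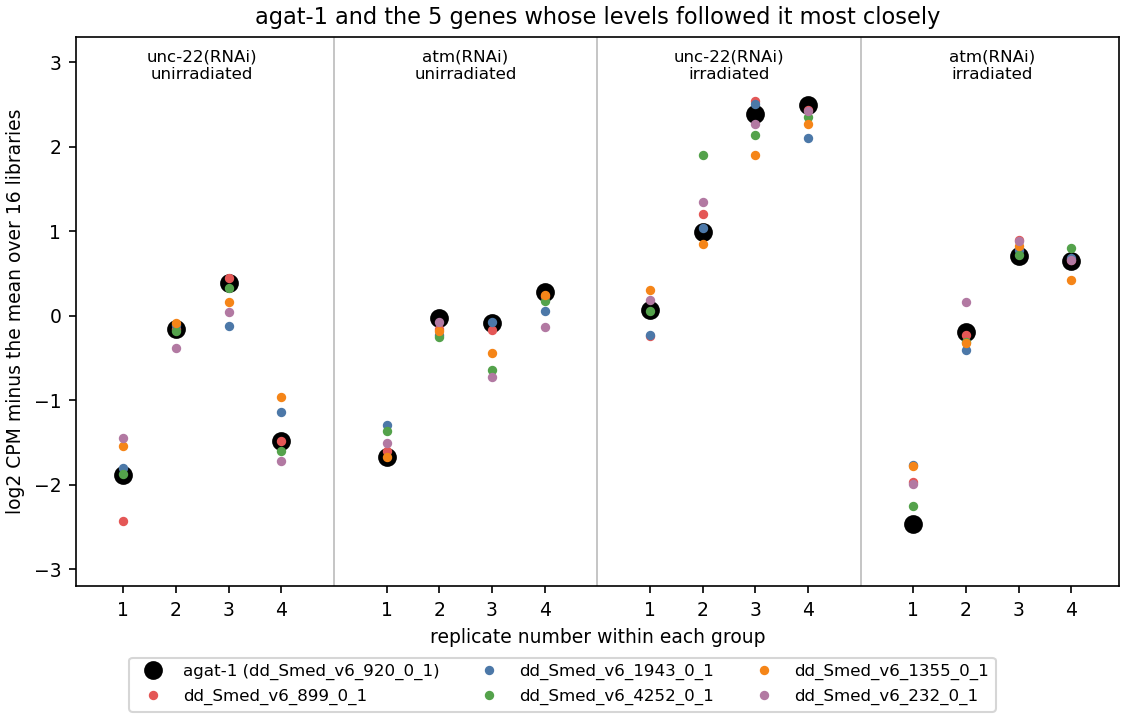
Log2 CPM of agat-1 and of the 5 nearest genes, each minus its own mean over the 16 libraries (y axis), by group and replicate number (x axis). The points of each library lie close together, below most others of the group in library 1 and highest in libraries 3 and 4 of irradiated unc-22(RNAi); the genes were chosen for this likeness.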

How the data were processed

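The authors deposited raw counts of reads per gene for 16 libraries of X1 cells, as a matrix and as a file per library. Trim Galore 0.6.5 and STAR 2.7.9 are named in the submitters' processing notes; their settings are not given in the sources used here. The matrix equalled the reverse-strand counts of the library files in all 429328 cells. Reads mapped to several places are outside the counts, so a gene with near-identical copies is counted too low.

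Genes were filtered with filterByExpr (17843 kept, 8990 removed), scaled by TMM and fitted in edgeR 4.0.16 (R 4.3.3) with a coefficient per group over all 16 libraries. P-values were adjusted over all tested genes, with a threshold of 0.05. The SE is the log2 fold change divided by the square root of F. Log2 CPM used a prior count of 2. DESeq2 1.42.0 and limma 3.58.1 served as alternatives. The fit was run on simulated counts, with 200 genes changed by 2 in log2. These counts held no lane or replicate effect, so the run does not bear on such effects. Poisson intervals cover counting error alone: no molecular identifiers are mentioned, so reads may repeat a molecule. Each of the 24 pairs of libraries within a group differed by more than sampling noise. The named genes are agat-1, the 5 nearest to it over all libraries, the 3 nearest within groups and the 2 with the most reads. The gene, the lists and the tests were chosen with earlier results of these data known.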

Additional observations from a re-analysis of the deposited data

How the results depend on the processing

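For agat-1, 158 of 169 recomputed contrasts kept their direction and their side of the threshold. Without the fits that leave libraries out, 62 of 69 did. A contrast not called in the main fit and again not called counts as kept. The 169 include fits that leave out a library outside the contrast. The 1-transcript alternative, identical by construction, is not counted. Irradiation in unc-22(RNAi) gave a log2 fold change of 1.41 in lane 8 alone, not called, and from 1.79 to 2.71 with libraries left out. Irradiation in atm(RNAi) was -0.25 in lane 8 alone and from 0.02 to 0.68 with libraries left out. Knockdown in unirradiated animals ran from -0.16 to 0.76 with libraries left out. Knockdown in irradiated animals passed the threshold at -1.77 without a filter, -1.82 in DESeq2, -1.67 with lane as a covariate and -1.80 with the replicate block (adjusted p = 0.0026, edgeR), and ran from -1.98 to -1.36 with libraries left out. The interaction ran from -2.45 to -1.51 with libraries left out and passed at -2.09 with the replicate block (adjusted p = 0.0204, edgeR). The causes were not tested. The main fit and the permutation tests did not pair the samples by replicate number, since the labels do not say what a number stands for. The column names of the deposited matrix are numbered in runs that follow the replicate numbers across all groups. Over all genes, with group means taken away, 7 of 24 same-numbered pairs correlated above 0.1. The share above 0.1 among differently numbered pairs was not computed. Among libraries of the other groups, 11 of 16 libraries correlated best with one of their own number, although most libraries available as a match had another number. Whether a number marks a batch was not tested. The block moved the genes called for the interaction from 638 to 1258.

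Counts of called genes depended on the fit. Among fits other than those with libraries left out, they ran from 58 to 9266 for irradiation in unc-22(RNAi), from 0 to 2000 in atm(RNAi), from 0 to 5478 for knockdown in irradiated animals and from 0 to 1490 for the interaction, against 8442, 638, 2645 and 638. With 1 library left out, the last 3 ran from 148 to 1987, 1157 to 4366 and 151 to 1872. Taking all reads as library size moved the median log2 fold change of all genes to -0.38 in unc-22(RNAi) and to 0.55 between irradiated groups, where agat-1 was at -1.28.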

Other observations

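Within groups, 77.4% of the sum of squares of agat-1 in log2 CPM lay between replicate numbers, against a median of 32.4% over the 17843 tested genes, and 99.2% of genes had a smaller share. Between groups lay 42.7% of its total sum of squares, where the median gene had 45.5%. By replicate number, irradiated minus unirradiated unc-22(RNAi) was 1.95, 1.15, 2.00 and 3.98 in log2 CPM for numbers 1 to 4, and irradiated minus unirradiated atm(RNAi) was -0.79, -0.16, 0.80 and 0.37. Irradiated atm(RNAi) minus irradiated unc-22(RNAi) was -2.53, -1.18, -1.67 and -1.85, below 0 for each number. The labels do not say what a number stands for.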
